A study of Mus musculus with 11 samples.

Results

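The MHC class II presentation genes H2-Aa, H2-Ab1, H2-Eb1, H2-DMa, H2-DMb1, H2-DMb2, H2-Oa, H2-Ob, Cd74 and Ciita were followed by RNA-seq in lymph node (LN) and spleen of mice that express the oncogene BCL2 in B cells from different loci. The 10 genes were taken by symbol from a table of 10885 genes, and all 10 had a row with signal in each of the 11 libraries. KI mice (mice 5 and 6) carried BCL2 knocked in at the immunoglobulin kappa light chain locus, which places it under a light chain locus active in B cells. Tg mice (mice 3 and 4) carried BCL2 as a transgene under the 3' regulatory region (3'RR) of the immunoglobulin heavy chain locus, a B cell enhancer region. Wt mice (mice 1 and 2) were wild type. All groups, Wt included, had been immunised with sheep red blood cells into the peritoneal cavity 3 times over 3 months, and tissue was collected 1 month after the last dose, so no unimmunised tissue was compared. Each library held RNA of the dissociated cells of the whole tissue, not of sorted B cells. LN was measured in KI mice 5 and 6, Tg mice 3 and 4 and Wt mice 1 and 2, and spleen in KI mice 5 and 6, Tg mouse 4 and Wt mice 1 and 2; spleen of Tg mouse 3 was not analysed here.

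MHC class II molecules are pairs of an alpha and a beta chain that display peptides from endosomes to CD4+ T cells, and B cells, dendritic cells and macrophages carry them. H2-Aa and H2-Ab1 encode the chains of I-A, and H2-Eb1 encodes the beta chain of I-E. Cd74, the invariant chain, fills the groove of new class II molecules and takes them to endosomes, where H2-DM (H2-DMa with H2-DMb1 or H2-DMb2) exchanges its remnant for peptide. H2-O (H2-Oa with H2-Ob) binds H2-DM and restrains it, mainly in B cells. Ciita is the co-activator of the class II promoters: it does not bind DNA itself but is recruited by factors on the X box, bound by the RFX complex and CREB, and on the Y box, bound by NF-Y. In the GENCODE M21 annotation the 8 H2 members lie on chromosome 17 in the order H2-Oa, H2-DMa, H2-DMb2, H2-DMb1, H2-Ob, H2-Ab1, H2-Aa and H2-Eb1, and Ciita lies on chromosome 16.

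The promoters that share the Y box are shown because H2-Oa and H2-Ob, which moved apart below, both have one, as do chain genes of I-A, I-E and DM. RefSeq promoter windows (mouse build GRCm38.p6, 250 bases before to 50 after the start) were matched by symbol for 7 of the 10 members, as 8 windows, with none for H2-Ab1, Cd74 and Ciita. Searched on both strands, the Y box letters TGATTGG stood in the windows of 6 members, against 7.82% of all 32851 windows. The X box core AACNNATGA (N is any base) stood in 4 of them, H2-Eb1, H2-DMb1, H2-DMb2 and H2-Ob, against 2.85% of all windows, and both together in 0.307% of all windows. The cyclic AMP element TGACGTCA stood in the H2-Aa window, against 1.79% of all windows. The searched letters were chosen with these windows in view, so the shares describe them and are no test. The 82 bases around each Y box follow, 5′ to 3′ on the gene's strand, with the Y box, the X box and the cyclic AMP element in capitals. The stretches of H2-Aa and H2-Oa show the Y box without a match to the letters AACNNATGA. Variants of these letters were not searched, so a missing match does not mean that these promoters lack an X box.
H2-Aa, I-A alpha chain, chr17:34287852-34287933, minus strand: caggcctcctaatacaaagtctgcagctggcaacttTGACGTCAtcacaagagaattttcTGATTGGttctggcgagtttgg
H2-Eb1, I-E beta chain, chr17:34305746-34305827, plus strand: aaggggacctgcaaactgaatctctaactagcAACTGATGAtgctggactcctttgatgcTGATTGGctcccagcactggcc
H2-DMb1, DM beta chain, chr17:34153068-34153149, plus strand: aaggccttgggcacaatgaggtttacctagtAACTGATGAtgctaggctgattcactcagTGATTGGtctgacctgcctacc
H2-DMb2, DM beta chain, chr17:34145097-34145178, plus strand: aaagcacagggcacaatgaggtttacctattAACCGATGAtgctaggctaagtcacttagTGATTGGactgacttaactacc
H2-Oa, DO alpha chain, chr17:34092274-34092355, plus strand: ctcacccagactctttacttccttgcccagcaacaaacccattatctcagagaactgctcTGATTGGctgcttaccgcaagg
H2-Ob, DO beta chain, chr17:34238786-34238867, plus strand: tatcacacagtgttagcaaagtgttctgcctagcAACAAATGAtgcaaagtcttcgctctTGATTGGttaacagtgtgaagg

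**Figure D1:**
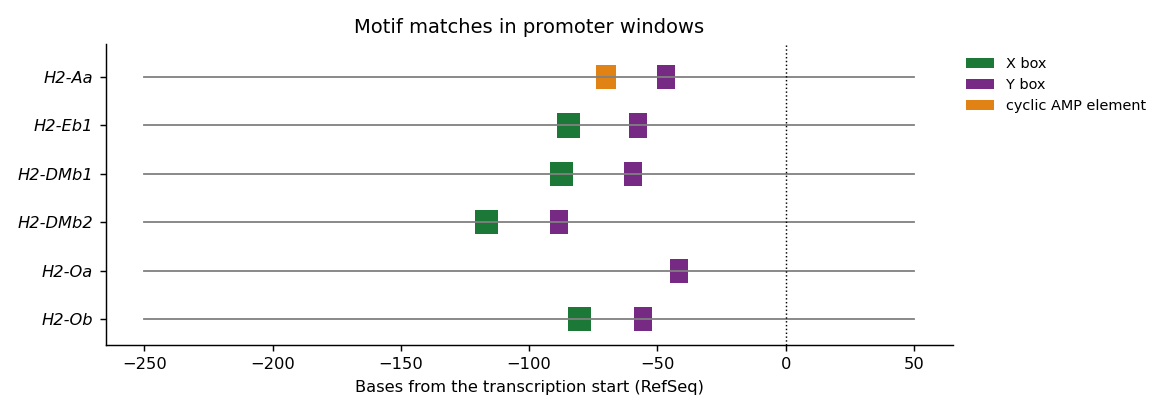
Positions of the searched letters in the promoter windows of 6 class II genes, in bases from the RefSeq start (dotted line); grey lines span the window and bars mark the X box, the Y box and the cyclic AMP element. The Y box begins between 92 and 45 bases before the start, and the X box core begins 26 to 29 bases before the Y box in H2-Eb1, H2-DMb1, H2-DMb2 and H2-Ob.

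The shown stretches of H2-DMb1 and H2-DMb2, 2 neighbouring DM beta chain genes, were identical at 69 of 82 bases. Their transcripts overlap in sequence too, with 369 of the 1355 stretches of 50 bases in H2-DMb1 (27.2%) also found in H2-DMb2. How the authors' counting assigned such reads is not given in the sources used here, so the division of signal between H2-DMb1 and H2-DMb2 is uncertain.

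Depth, as reads recovered over the genes of the table, was 11128568 to 21067988 in LN and 18994455 to 24110325 in spleen. The least covered member, H2-Oa, held 931 to 2362 reads per library. Pan B cell markers summed to 81872 to 177030 over the libraries with none at 0, while macrophage markers summed to 1440 to 3894 in LN and 8815 to 11428 in spleen. The row of the mouse gene Bcl2 was lower in KI (1246 to 1664 in LN, 1249 to 1299 in spleen) than in Wt (2338 to 2716 in LN, 2427 to 2611 in spleen), and whether reads of the inserted BCL2 enter that row is not given in the sources used here. Wt mouse 1 differed from the other 5 mice in Xist, with 12314 and 14513 in its libraries against 0.844 to 8.04 in the other 9, so 1 of the 2 Wt mice expresses this female marker. Neutrophil markers also differed within the Wt group, with sums of 5162 and 44502 in the spleens and 64.5 and 1593 in the LNs.

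The class II genes were among the strongest of the table, and together they held between 1.10% and 1.86% of a library's signal. Cd74, on chromosome 18, ranked 4 by mean signal among all genes, H2-Ab1 ranked 16, H2-Eb1 29 and H2-Aa 38, without correction for length. The other members ranked between 167 for H2-Ob and 2624 for H2-Oa. Per kilobase of transcript, the median signal over the 11 libraries was 83437 for Cd74, 38054 for H2-Ab1, 29076 for H2-Aa and 21051 for H2-Eb1. The DM and DO chains were lower on this per-kilobase scale, with 6708 for H2-DMb2, 4321 for H2-Ob, 2890 for H2-DMa, 1964 for H2-DMb1 and 1409 for H2-Oa. Ciita was the lowest at 1050 per kilobase, although its long transcript gave it more total signal than H2-DMa, H2-DMb1 or H2-Oa. The highest library exceeded the lowest by between 1.53 times in H2-DMa and 2.23 times in H2-DMb1, a narrow range beside the differences in level between members.

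**Figure D2:**
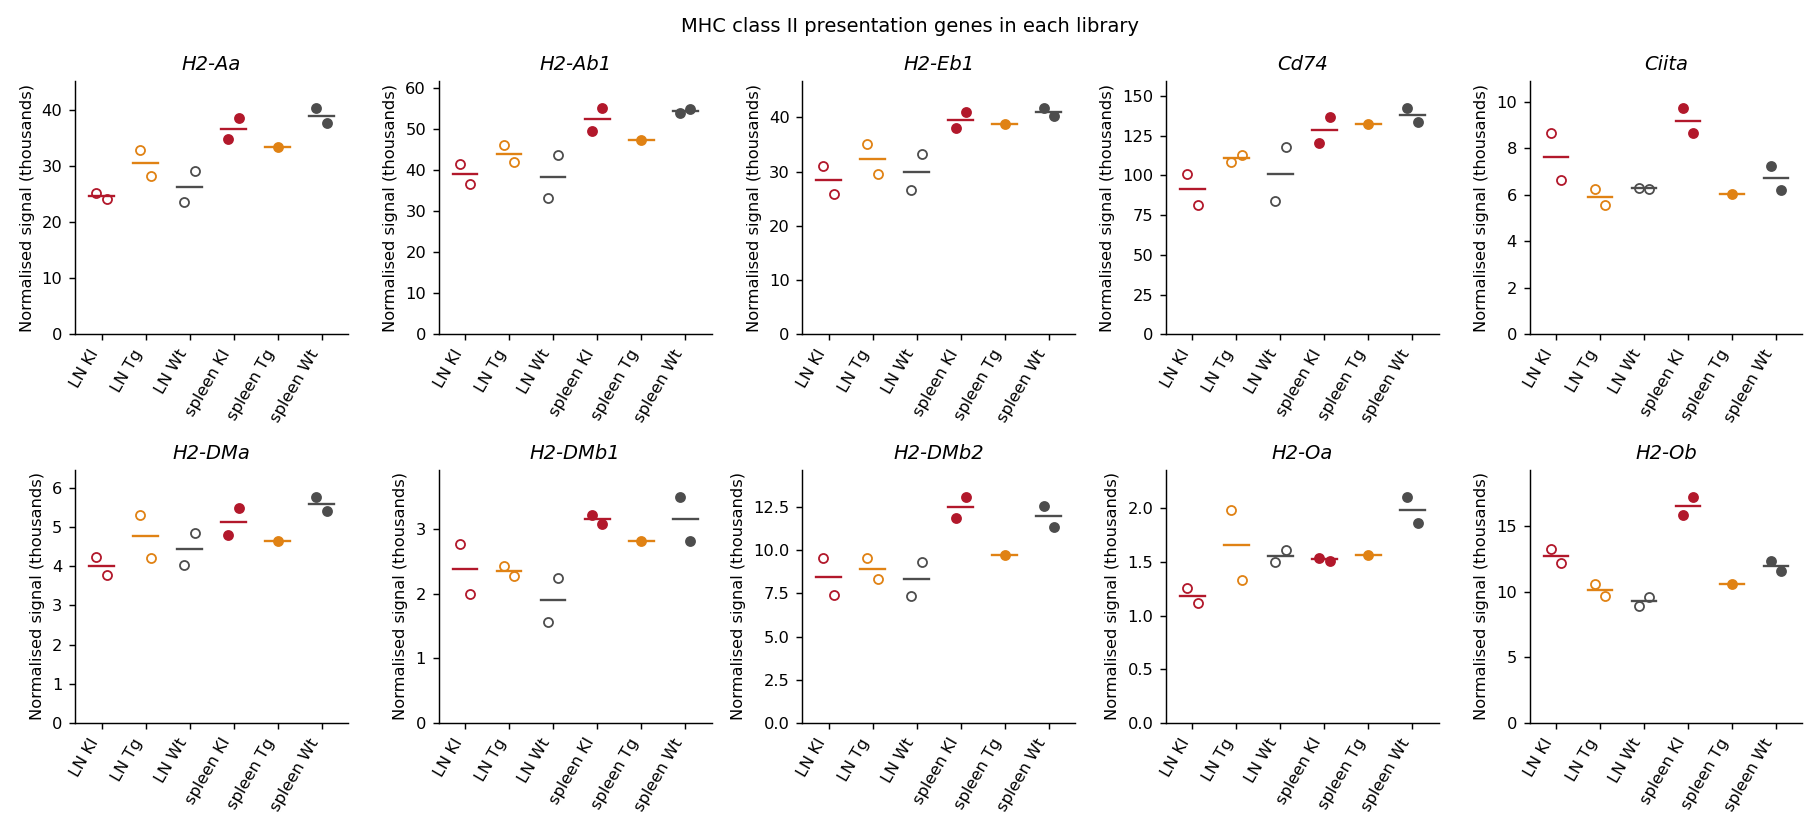
Normalised signal (axis labels divided by 1000, linear axes from 0) of the 10 class II genes, 1 panel a gene; each point is a library and each bar a group mean, with LN open and spleen filled, KI red, Tg orange and Wt grey. H2-Ob stands higher in all 4 KI libraries than in the Wt libraries of the same tissue, H2-Oa lower, and H2-Aa, H2-Ab1, H2-Eb1 and Cd74 separate by tissue more than by genotype.

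KI tissue was compared with Wt tissue to ask what BCL2 at the kappa locus does to class II expression. In both tissues H2-Ob, the beta chain of the DM inhibitor H2-O, was the 1 member of 10 that rose past the threshold (adjusted p under 0.05), by 1.38-fold in LN and 1.38-fold in spleen. None fell. Over all genes 26% were called in KI LN (13.8% higher, 12.2% lower) and 16.8% in KI spleen (7.63% higher, 9.21% lower), so the members' share called was near or below the background. The median log2 difference of the members was -0.02 in LN and -0.06 in spleen, against -0.02 and 0.01 over all genes. In whole tissue, a change in the number of cells that express a gene and a change in RNA per cell cannot be told apart.

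H2-Ob had 13262 and 12197 in KI LN, against 8934 and 9567 in Wt LN. In spleen it had 15809.7 and 17204 in KI mice, against 12303 and 11536 in Wt mice. All KI libraries lay above all Wt libraries of their tissue. With 2 libraries a group, genes without a change can separate in this way too. The share of all genes that did so was not counted. The log2 difference was 0.46 ± 0.11 (SE) in LN (limma, Benjamini-Hochberg adjusted p = 0.0117, n = 2 a group) and 0.47 ± 0.11 in spleen (limma adjusted p = 0.0174, n = 2 a group). Leaving out any 1 of the 4 spleen libraries ended the spleen call, at log2 differences of 0.41 to 0.53 (limma adjusted p = 0.062 to 0.127), and the LN call ended without KI mouse 5 (0.40, limma adjusted p = 0.0974) or Wt mouse 1 (0.41, limma adjusted p = 0.0739). Scaled to the mean of the pan B cell markers, the difference was 0.18 in LN and 0.26 in spleen and was not called in either (limma adjusted p = 0.484 and 0.39). That scaling moved the median of all genes by -0.283 in LN and -0.213 in spleen.

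H2-Oa, the alpha chain of the same inhibitor, moved the other way without passing the test. It had 1252 and 1114 in KI LN, against 1501 and 1611 in Wt LN. In spleen it had 1533 and 1509 in KI mice, against 2104 and 1858 in Wt mice. All KI libraries lay below all Wt libraries of their tissue, and the share of all genes that did so was not counted. The log2 difference was -0.40 ± 0.16 in LN (limma adjusted p = 0.104) and -0.38 ± 0.16 in spleen (limma adjusted p = 0.141), with 95% intervals of -0.76 to -0.03 and -0.74 to -0.01. Fitted on spleen libraries alone the spleen difference was called (limma adjusted p = 0.037). With pan B cell marker scaling H2-Oa was called lower in both tissues, at -0.68 in LN (limma adjusted p = 0.0061) and -0.59 in spleen (limma adjusted p = 0.0278). The wider differences follow from the same shift of all genes, -0.283 in LN and -0.213 in spleen.

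The pair can be read within each library, where any scaling factor cancels. The ratio of H2-Ob to H2-Oa signal was 10.6 and 10.95 in KI LN, 5.33 and 7.31 in Tg LN, and 5.95 and 5.94 in Wt LN. In spleen the ratio was 10.3 and 11.4 in KI mice, 6.77 in the Tg mouse, and 5.85 and 6.21 in Wt mice. The 4 KI libraries thus spanned 10.3 to 11.4 and the 7 Tg and Wt libraries 5.33 to 7.31, without overlap. The 4 KI libraries came from mice 5 and 6 and the other 7 from mice 1 to 4, so they do not stand for as many animals. The ratio of H2-Ab1 to H2-Aa, the corresponding chains of I-A, ranged from 1.34 to 1.65 over all 11 libraries. These ratios were chosen after the values were seen and carry no test.

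**Figure D3:**
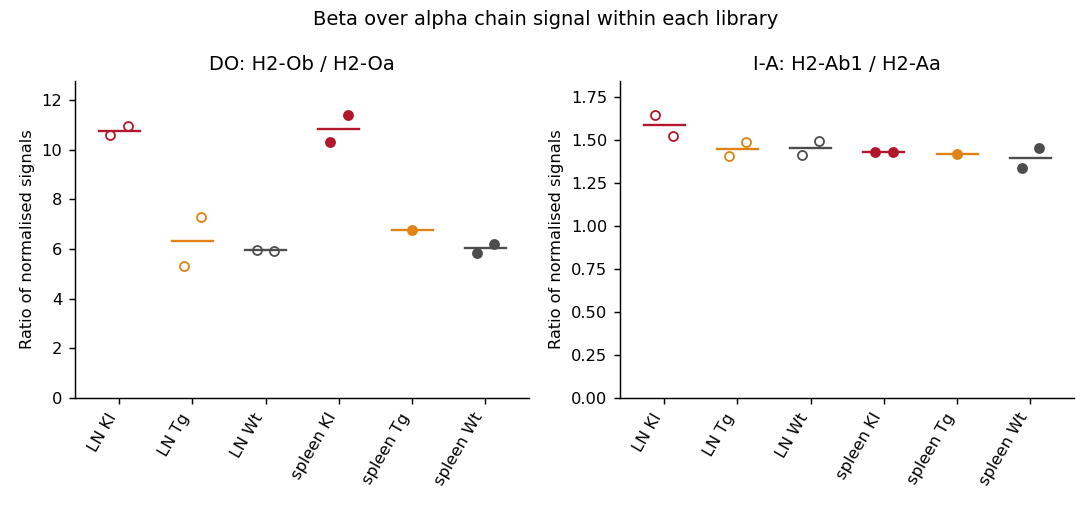
Ratio of beta to alpha chain signal within each library (linear axes from 0) for H2-O, left, and I-A, right; points are libraries and bars group means, with LN open and spleen filled, KI red, Tg orange and Wt grey. The H2-Ob to H2-Oa ratio is 10.3 to 11.4 in the 4 KI libraries and 5.33 to 7.31 in the other 7, while the H2-Ab1 to H2-Aa ratio stays between 1.34 and 1.65.

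Ciita, the co-activator, lay above Wt in KI tissue but did not pass the test. It had 8677 and 6620 in KI LN, against 6307 and 6271 in Wt LN. In spleen it had 9730.2 and 8659 in KI mice, against 7223 and 6223 in Wt mice. The groups did not overlap in either tissue, and in LN the lower KI library was close to Wt. The share of all genes without such overlap was not counted. The log2 difference was 0.27 ± 0.14 in LN (limma adjusted p = 0.199) and 0.45 ± 0.14 in spleen (limma adjusted p = 0.0536). Fitted on spleen libraries alone the spleen difference was called (limma adjusted p = 0.0269), as it was after quantile normalisation (0.58, limma adjusted p = 0.0185) and with the immunoglobulin and haemoglobin genes left out of the scaling (0.54, limma adjusted p = 0.023). In LN, quantile normalisation gave a call too (0.45, limma adjusted p = 0.0444), whereas without KI mouse 5 the difference was 0.074 and without KI mouse 6 it was 0.46. Scaled to the pan B cell markers, the LN difference of Ciita was -0.014.

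The classical chains H2-Aa, H2-Ab1 and H2-Eb1 were close to Wt in KI tissue. H2-Aa had 25193 and 24104 in KI LN, against 23584 and 29145 in Wt LN; in KI spleen it had 34753 and 38613, against 40339 and 37699 in Wt spleen. H2-Ab1 had 41478 and 36776 in KI LN, against 33317 and 43654 in Wt LN, whereas KI spleen had 49641 and 55152, against 54078 and 54843 in Wt spleen. H2-Eb1 had 31018 and 25855 in KI LN, against 26653 and 33222 in Wt LN, whereas KI spleen had 38100.1 and 40992, against 41687 and 40303 in Wt spleen. In LN the lower of the 2 Wt values was that of mouse 1 for each of these genes, and the KI and Wt groups overlapped for all 3 genes in both tissues. The log2 differences for H2-Aa were -0.09 ± 0.14 in LN and -0.09 ± 0.14 in spleen, with 95% intervals of -0.40 to 0.22 in each tissue, and those for H2-Ab1 and H2-Eb1 lay between -0.07 and 0.03 (limma adjusted p = 0.687 to 0.897 over the 3 genes and both tissues). The direction of these small differences is not fixed: it turned with a left-out library or another scaling, as the values on processing show.

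Cd74, the invariant chain, had 100817 and 81545 in KI LN, against 84180 and 117646 in Wt LN. In spleen it had 120273 and 137103 in KI mice, against 142374 and 133507 in Wt mice. The KI and Wt groups overlapped in both tissues, and the log2 difference was -0.13 ± 0.18 in LN (limma adjusted p = 0.625) and -0.10 ± 0.18 in spleen (limma adjusted p = 0.722). After quantile normalisation the LN difference was -0.77 and was called (limma adjusted p = 0.00738).

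The DM chains did not pass the test in KI tissue. H2-DMa had 4238 and 3777 in KI LN, against 4031 and 4843 in Wt LN, whereas KI spleen had 4792 and 5472, against 5766 and 5408 in Wt spleen. H2-DMb2 had 9546 and 7419.7 in KI LN, against 7344 and 9338 in Wt LN, whereas KI spleen had 11878 and 13096, against 12589 and 11362 in Wt spleen. H2-DMb1 had 2758 and 1985 in KI LN, against 1566 and 2239 in Wt LN, whereas KI spleen had 3218 and 3080.2, against 3492 and 2815 in Wt spleen. All 3 genes overlapped between KI and Wt in both tissues. The widest difference was that of H2-DMb1 in LN, 0.32 ± 0.20 on the log2 scale with a 95% interval of -0.12 to 0.76 (limma adjusted p = 0.266).

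**Figure D4:**
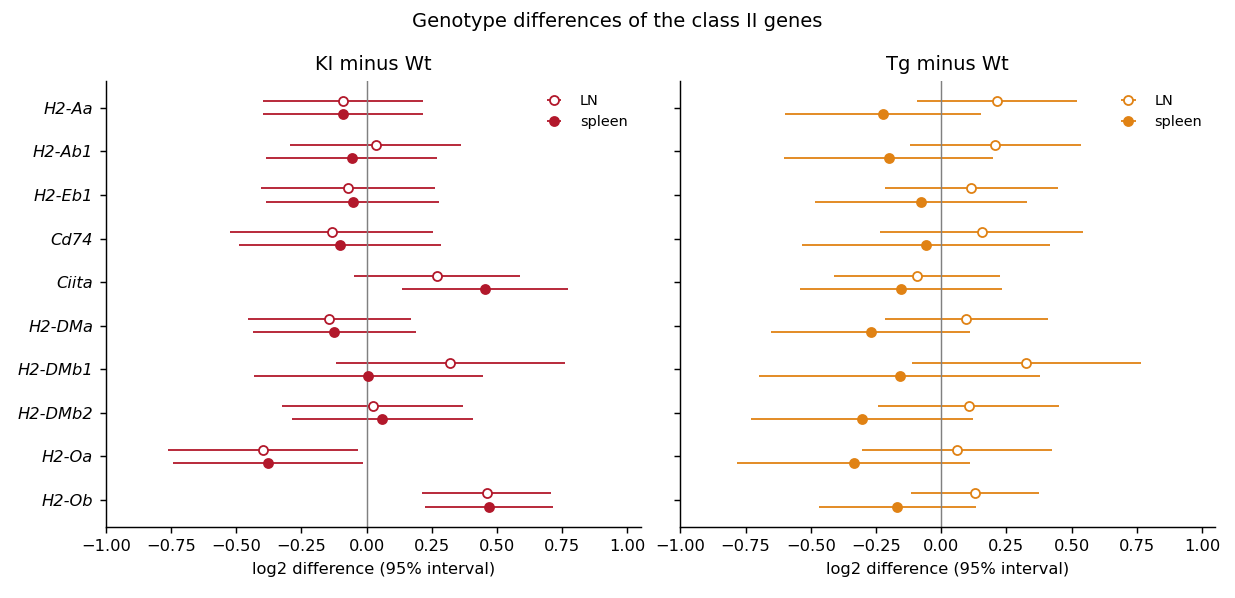
Log2 differences of the 10 class II genes with 95% intervals from limma, KI minus Wt on the left and Tg minus Wt on the right; open points are LN and filled points spleen. H2-Ob lies at 0.46 and 0.47 in KI LN and spleen with intervals above 0, H2-Oa at -0.40 and -0.38, and every Tg interval includes 0.

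Genes that act with the class II members were read from lists in the same comparison. None of the 7 X box and Y box factors (RFX, NF-Y and Creb1) was called in KI LN or KI spleen; the smallest p-values were those of the RFX subunit Rfx5 in LN (0.31, limma adjusted p = 0.0713) and the NF-Y subunit Nfya in spleen (0.39, limma adjusted p = 0.06). With the immunoglobulin and haemoglobin genes left out of the scaling both were called (limma adjusted p = 0.018 for Rfx5 in LN and 0.0172 for Nfya in spleen), and Nfya also after quantile normalisation (0.0307) and in spleen libraries alone (0.0259). Of 7 factors known to act on Ciita, 3 rose in KI LN. Among them were Prdm1, the plasma cell repressor of Ciita (2.31 ± 0.32 log2), and Irf8 (0.43 ± 0.12), a factor of myeloid and B cells. In KI spleen 2 of them fell, the interferon-induced factor Irf1 by 0.90 ± 0.13 and Irf4 by 1.18 ± 0.31 on the log2 scale. The Irf4 call ended without any 1 of the 4 spleen libraries (limma adjusted p = 0.0561 to 0.183), and that of Irf8 without LN KI mouse 6, Wt mouse 1 or Wt mouse 2 (0.0848 to 0.148) and with pan B cell marker scaling (0.59). Irf4 and Prdm1 are also among the plasma cell markers.

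Of 10 endosomal processing genes, 3 rose and 1 fell in KI LN: the proteases Lgmn (0.78) and Ctsh (0.52) and the cathepsin inhibitor Cst3 (0.38) rose, and the protease Ctsd fell by 0.49. In KI spleen Cst3 alone rose (0.48). Of these calls that of Lgmn held in each alternative tried. Without LN KI mouse 6, Wt mouse 1 or Wt mouse 2 the LN calls of Cst3 (limma adjusted p = 0.121 to 0.289) and Ctsh (0.0503 to 0.1) ended, as they did with pan B cell marker scaling (0.719 and 0.337), and that of Cst3 ended also in LN libraries alone (0.0723) and with edgeR (0.069). The Ctsd call ended without LN KI mouse 5, Wt mouse 1 or Wt mouse 2 (0.0669 to 0.209) and with the immunoglobulin and haemoglobin genes left out (0.0811). The spleen call of Cst3 ended without KI mouse 5, KI mouse 6 or Wt mouse 1 (0.0836 to 0.178) and with pan B cell marker scaling (0.377). Ctss, the protease that trims the invariant chain in B cells and dendritic cells, had 0.07 in LN and -0.15 in spleen and was not called.

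Of 7 measured class II turnover and costimulation genes, 4 rose in KI LN and 2 in KI spleen, where 1 fell. Marchf8, a ubiquitin ligase that can remove class II from the cell surface, had 140.2 and 142 in KI LN, against 39.4 and 45.2 in Wt LN, a log2 difference of 1.72 ± 0.27 (limma adjusted p = 0.00134). It had 158 to 210.1 in KI spleen, against 74.3 to 94.4 in Wt spleen (1.11 ± 0.27, limma adjusted p = 0.02). Marchf1, the related ligase of class II and CD86 in B cells and dendritic cells, rose in KI LN (0.78 ± 0.20, limma adjusted p = 0.0187) and had 0.22 ± 0.20 in spleen. The costimulatory ligand Cd86 rose in both tissues, by 1.42 ± 0.15 in LN and 0.81 ± 0.15 in spleen, and Cd80 rose in LN by 1.79 ± 0.31. Cd83, which opposes Marchf1 in dendritic cells, fell by 1.51 ± 0.36 in KI spleen and had -0.92 ± 0.36 in KI LN, where it was not called. The spleen call of Marchf8 ended without any 1 of the 4 libraries (limma adjusted p = 0.0555 to 0.152) and with pan B cell marker scaling (0.0895), that of Cd83 without KI mouse 5, KI mouse 6 or Wt mouse 1 (0.112 to 0.153), and that of Cd86 without KI mouse 5 (0.0528). The LN call of Marchf1 ended without KI mouse 5, Wt mouse 1 or Wt mouse 2 (0.0535 to 0.13).

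Markers of the cells that carry class II also differed between KI and Wt tissue. Of 12 pan B cell markers, 6 rose and 2 fell in KI LN, and their summed signal was 102092 to 127531 in KI LN, against 81872 to 90576 in Wt LN. In spleen 4 rose and 1 fell, and the sum was 158240 to 177030 in KI, against 126720 to 135798 in Wt. Germinal centre markers rose for 8 of 9 genes in KI LN and 4 of 9 in KI spleen, and plasma cell markers for 9 of 10 in KI LN and 8 of 10 in KI spleen, where 1 fell. T cell markers, of cells that lack class II in mice, fell for 12 of 12 in KI LN (sums 34757 to 42698, against 76737 to 82551 in Wt) and for 10 of 12 in KI spleen (19358 to 20219, against 39623 to 40728 in Wt). Of 10 conventional dendritic cell markers, 3 rose and 4 fell in KI LN (median -0.11), among them Sirpa (1.07), Flt3 (1.04), Fscn1 (-1.76) and Ccl22 (-2.87), and in KI spleen 1 fell and none rose (median -0.11). They summed to 5568 to 7150 in KI LN, against 14368 to 21890 in Wt LN, and to 7424 to 7517 in KI spleen, against 13013 to 16786 in Wt spleen. These sums follow the strongest of the dendritic cell markers. Their mean log2 signal was 7.69 and 8.45 in KI LN, against 8.51 and 8.41 in Wt LN. In spleen that mean was 8.23 and 8.16 in KI, against 8.52 and 8.32 in Wt. Macrophage markers fell for 8 of 13 in KI LN and for none in KI spleen. The part of these shifts in the class II results was not tested beyond the pan B cell marker scaling, which is given with single genes and with the values on processing.

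The other class II gene measured, H2-Eb2, had 2150.1 and 1784 in KI LN, against 1651 and 2115 in Wt LN (0.07 ± 0.15). None of 11 class I presentation genes was called in KI tissue, with medians of -0.11 in LN and -0.01 in spleen. The nearest to the threshold were Tap1, a peptide transporter, in LN (0.26, limma adjusted p = 0.0916) and Nlrc5, the class I counterpart of Ciita, in spleen (-0.50, limma adjusted p = 0.059). Tap1 was called with the immunoglobulin and haemoglobin genes left out (limma adjusted p = 0.0162) and after quantile normalisation (0.0144), Nlrc5 in spleen libraries alone (0.0163) and with pan B cell marker scaling (0.0294), and Erap1 in LN, at -0.30 as reported, without KI mouse 6 (0.0291) and with pan B cell marker scaling (0.0274).

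KI LN was also set against Tg LN, which compares BCL2 at the kappa locus with BCL2 under the 3'RR. H2-Ob had 13262 and 12197 in KI LN, against 10565 and 9686 in Tg LN, and was the 1 member that rose (0.33 ± 0.11, limma adjusted p = 0.0497, n = 2 a group), where 26.7% of all genes were called (14.5% higher, 12.2% lower). The call sits at the threshold: it was lost with the mouse as a random block (limma adjusted p = 0.0501), in LN libraries alone (0.11), with edgeR on recovered reads (0.126), with genes of mean value under 100 left out (0.0518), and without KI mouse 5 (0.252), KI mouse 6 (0.092) or Tg mouse 4 (0.139). H2-Oa had -0.46 ± 0.16 (limma adjusted p = 0.0639) and Ciita 0.36 ± 0.14 (limma adjusted p = 0.087), and for both the KI and Tg libraries did not overlap. H2-Oa was -0.17 without Tg mouse 3 and -0.75 without Tg mouse 4, where it was called (limma adjusted p = 0.0043). Ciita was called without KI mouse 6 (0.56, limma adjusted p = 0.0334), after quantile normalisation (0.50, limma adjusted p = 0.0279) and with the immunoglobulin and haemoglobin genes left out (0.45, limma adjusted p = 0.0362). H2-Aa had 25193 and 24104 in KI LN, against 32798 and 28187 in Tg LN, a difference of -0.30 ± 0.14 (limma adjusted p = 0.131), also without overlap. The remaining members lay between -0.29 for Cd74 and -0.01 for H2-DMb1. Among them Cd74 and H2-Ab1 also lay lower in both KI libraries than in both Tg libraries. Non-overlap was thus not particular to the genes named before, and the share of all genes without overlap was not counted. This comparison shares its KI libraries with that of KI against Wt.

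Tg tissue was compared with Wt tissue to read the 3'RR transgene. No member was called in either tissue, and 0% of all genes were. In LN 532 genes and 0 members passed an unadjusted p under 0.05, and edgeR called 0 genes and DESeq2 28. In spleen 164 genes and 0 members passed an unadjusted p under 0.05. In LN the members' log2 differences ranged from -0.09 for Ciita to 0.33 for H2-DMb1 with a median of 0.12, against -0.02 over all genes. H2-Ob had 10565 and 9686 in Tg LN, against 8934 and 9567 in Wt LN, a difference of 0.13 ± 0.11 with a 95% interval of -0.12 to 0.38. H2-Oa had 1981 and 1326 in Tg LN, against 1501 and 1611 in Wt LN (0.06 ± 0.16), and the 2 Tg libraries lay on either side of both Wt libraries. Ciita had 6258 and 5558 in Tg LN, against 6307 and 6271 in Wt LN.

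In spleen the single Tg library, of mouse 4, lay below both Wt libraries for all 10 members. The share of all genes that lay so was not counted, and members that vary together are not separate observations. It held 33417 for H2-Aa, 47373 for H2-Ab1 and 38823 for H2-Eb1, 132276 for Cd74 and 6027 for Ciita. It held 4629 for H2-DMa, 2809 for H2-DMb1, 9701 for H2-DMb2, 1566 for H2-Oa and 10600.1 for H2-Ob. The log2 differences from Wt ran from -0.34 for H2-Oa to -0.06 for Cd74, with 95% intervals that all included 0, and the spread of this group was taken from the other groups. The same library held neutrophil markers at a sum of 37801, against 5162 and 44502 in the Wt spleens.

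Whether the KI difference depends on tissue was tested directly as the KI minus Wt difference in LN less that in spleen. No member was called, against 0.955% of all genes (0.763% higher and 0.193% lower; 104 genes, or 596 with the mouse as a fixed block, with no member among them either); 1584 genes and 0 members passed an unadjusted p under 0.05. For H2-Ob the difference of differences was -0.01 ± 0.16 with a 95% interval of -0.36 to 0.34, and for H2-Oa -0.02 ± 0.23 with -0.53 to 0.50. The widest were H2-DMb1 at 0.32 ± 0.28 and Ciita at -0.18 ± 0.20. The intervals are wide: a tissue difference as large as the H2-Oa effect itself lies within its interval.

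LN was compared with spleen over all genotypes. Class II transcripts were lower in LN: 7 of 10 members fell and none rose, where 15.1% of all genes were called (9.07% lower, 6.05% higher). The members' median log2 difference was -0.40, against 0.01 over all genes. The classical chains fell together, H2-Aa by 0.46 ± 0.10 (limma adjusted p = 0.0063), H2-Eb1 by 0.42 ± 0.09 (limma adjusted p = 0.00714) and H2-Ab1 by 0.38 ± 0.10 (limma adjusted p = 0.0198). Cd74 fell by 0.43 ± 0.10 (limma adjusted p = 0.0152), with 81545 to 117646 over the 6 LN libraries, against 120273 to 142374 over the 5 spleen libraries. The LN and spleen libraries of Cd74 did not overlap, and the share of all genes that separated so was not counted.

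Of the DM chains, H2-DMb1 fell by 0.50 ± 0.13 (limma adjusted p = 0.0189) and H2-DMb2 by 0.44 ± 0.11 (limma adjusted p = 0.014), while H2-DMa had -0.25 ± 0.09 and was not called (limma adjusted p = 0.102). H2-Ob fell by 0.29 ± 0.07 (limma adjusted p = 0.0172), and H2-Oa had -0.25 ± 0.11 (limma adjusted p = 0.151). Ciita had -0.15 ± 0.09 (limma adjusted p = 0.333), the smallest tissue difference of the 10. The 5 mice with both tissues allowed a paired reading: 9 members were lower in LN in 5 of 5 mice, and Ciita in 4 of 5. The share of all genes lower in LN in 5 of 5 mice was not counted. Within mice, H2-Aa differed by between -0.77 and -0.25 on the log2 scale and H2-Oa by between -0.49 and -0.21. With the mouse as a fixed block H2-Oa was called too (-0.33, limma adjusted p = 0.0151), which made 8 of 10. Calls were lost for H2-Ab1 without LN KI mouse 6, spleen Wt mouse 1 or spleen Wt mouse 2 (limma adjusted p = 0.0551 to 0.0601), for H2-Ob without spleen Wt mouse 1 (0.0527) and for H2-DMb1 without LN KI mouse 6 (0.0518), and for H2-Ab1 and Cd74 after quantile normalisation (0.102 and 0.121). Without LN Tg mouse 3, H2-DMa and H2-Oa were called as well (0.0214 and 0.005), and H2-DMa also without spleen Tg mouse 4 (0.0464).

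Pan B cell markers fell in LN for 11 of 12 genes, with a median log2 difference of -0.58, and T cell markers rose for 12 of 12, with a median of 0.94. Scaled to the pan B cell markers, all 10 members turned positive in LN relative to spleen, from 0.10 for H2-DMb1 to 0.46 for Ciita, and 4 of them were called higher. That scaling moves the median of all genes by 0.61 on the log2 scale and calls 8984 of 10885 genes higher in LN, so the change of sign follows from the shift, and the values of all 10 members stayed below it. Macrophage markers fell for 11 of 13 genes in LN and rose for 1; their part in the class II difference was not tested.

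The genes around class II followed in the same direction. Of 10 endosomal processing genes 5 fell in LN, among them Ctsb (-0.67), Lgmn (-0.64), Ctsz (-0.45) and Ctss (-0.41). Of 7 turnover and costimulation genes 5 fell, among them Cd80 (-1.11), Marchf8 (-0.71), the CD40 ligand receptor Cd40 (-0.56) and the costimulatory ligand Icosl (-0.36). Of the factors that act on Ciita, the myeloid and B cell factor Spi1 (-0.81) and the B cell factor Pax5 (-0.49) fell, and none of the 7 X box and Y box factors was called (Creb1 0.15, Rfxank 0.14). Class I presentation genes went the other way, with 5 of 11 higher and none lower in LN, among them Nlrc5 (0.53), Erap1 (0.29), which trims peptides, Psmb8 (0.29), an immunoproteasome subunit, and the peptide transporter Tap2 (0.21). H2-Eb2 had 0.03 ± 0.09 and was not called. With the mouse as a fixed block the calls of Tap2 (limma adjusted p = 0.0565) and Psmb8 (0.0588) ended. Leaving out 1 library ended the call of Tap2 for spleen KI mouse 5, spleen Tg mouse 4, spleen Wt mouse 1 and LN Wt mouse 2 (0.0547 to 0.079), of Psmb8 for spleen Tg mouse 4 (0.0632), of Erap1 for Wt mouse 1 in either tissue and spleen Wt mouse 2 (0.0516 to 0.0548), and of Marchf8 for spleen KI mouse 5, spleen Tg mouse 4 and spleen Wt mouse 2 (0.0522 to 0.0748). Marchf8 was not called after quantile normalisation either (0.102), nor were Ctsb, Lgmn, Spi1 and Marchf8 with pan B cell marker scaling (0.133 to 0.816). That scaling called 8984 genes higher in LN. Among them were Creb1 (0.75, limma adjusted p = 2.08e-05), Rfxank (0.75, 4.39e-05) and H2-Eb2 (0.63, 4.36e-05). Icosl turned to 0.24 there and was called higher (0.0272).

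**Figure D5:**
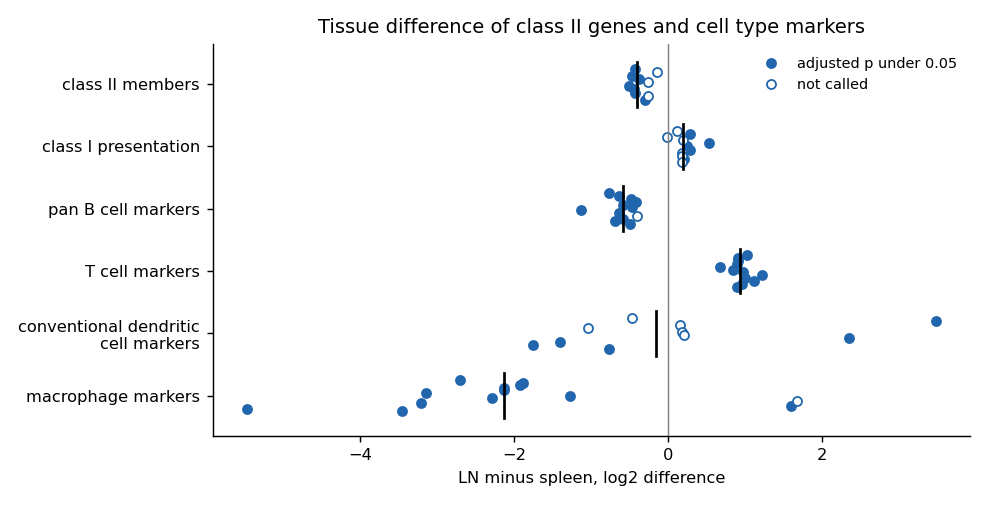
Log2 difference, LN minus spleen with genotype as an additive term, for the class II genes and 5 other lists; each point is a gene, filled where the limma adjusted p is under 0.05, and black ticks are medians. The class II genes lie at -0.50 to -0.15, on the side of the pan B cell markers (median -0.58) and opposite the class I genes (median 0.20) and T cell markers (median 0.94).

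The members fell into patterns over the 11 libraries, given here as a description since the libraries share tissue, genotype and mice. H2-Aa, H2-Ab1 and H2-Eb1 followed each other closely, with Pearson r of 0.967 for H2-Aa with H2-Ab1, 0.965 for H2-Aa with H2-Eb1 and 0.962 for H2-Ab1 with H2-Eb1 on the log2 scale. Cd74 followed them, with r of 0.924 to 0.944. H2-Ob followed Ciita (r = 0.878) more than Cd74 (r = 0.344), and H2-Oa followed H2-DMa (r = 0.861). H2-Oa and H2-Ob, which form 1 dimer, had r of -0.09, and Ciita and Cd74 had 0.148. The genes of the table most like the mean of the 10 members were Stk11ip (r = 0.949), the B cell adaptor Bank1 (0.943), the phosphatase Dusp3 (0.939), the kinase Prkce (0.933) and Tfeb (0.929), a regulator of lysosomal genes. Those most like Ciita by Pearson r were Swap70 (0.937), Rnf168 (0.93), Arid3b (0.93), Gmcl1 (0.927) and Stac2 (0.926). By rank the likeness to Ciita was weaker for some. Spearman rho was 0.691 for Arid3b, 0.782 for Stac2 and 0.818 for Swap70, against 0.927 for Rnf168 and 0.9545 for Gmcl1.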

How the data were processed

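Per the submitters' processing notes, the tools were FastQC 0.11.5, STAR 2.5, featureCounts, Subread 1.4.6 and DESeq2 1.26.0, with the build GRCm39 and no roles given; annotation and strand setting are not given in the sources used here. Libraries were made with a SMARTER kit, per the labels' protocols. The deposited table holds a normalised signal, which, judged by its values, the authors obtained from gene read counts through division by a library-wide factor: 100% of values were whole multiples of 1 step within 0.05 reads. No gene of the table stays below 109 in every library, so weakly expressed genes were not examined. Because the values are not counts, limma-trend 3.58.1 (R 4.3.3; empirical Bayes, trend and robust) on log2(value + 1) was the main test in place of edgeR; fold changes are on that scale. The 6 group means were fitted over 11 libraries (5 residual degrees of freedom), and LN against spleen with genotype as an additive term. P-values were adjusted by Benjamini-Hochberg over all 10885 genes, and genes under 0.05 were called. Replicates are different mice. Spleen and LN of 1 mouse share its number in the labels; the deviations of the 2 tissues from their group means correlated at 0.9 in KI and 0.403 in Wt, and the mouse was a block in an alternative (statmod 1.5.0, consensus correlation 0.0168). edgeR 4.0.16 and DESeq2 1.42.0 were run on recovered LN reads as alternatives. Leaving out a library, pseudocounts, scaling and filters were also varied, and the scripts were tested on simulated data. GENCODE M21, which matched 10875 identifiers, gave chromosomes and transcript lengths (longest principal transcript), and promoter windows are RefSeq's, of GRCm38.p6. All 10 members and, of each further list, up to 4 called genes of smallest p, or the 2 of smallest p where none was called, were to be named; Ctss in KI tissue, the chain ratios and the searched letters were chosen with values in view. The members and lists were chosen with earlier results of these data known. One gene that the naming rule selects is not reported here.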

Additional observations from a re-analysis of the deposited data

Results flagged for a closer look

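For 2 members the Tg libraries lay on opposite sides of Wt in the 2 tissues, and the share of all genes that did so was not counted. H2-DMb1 had 2431 and 2269 in Tg LN, against 1566 and 2239 in Wt LN, a log2 difference of 0.33, while the 1 Tg spleen held 2809, against 3492 and 2815 in Wt spleens, a difference of -0.16. H2-Ob had 10565 and 9686 in Tg LN, against 8934 and 9567 in Wt LN, a log2 difference of 0.13, while the 1 Tg spleen held 10600.1, against 12303 and 11536 in Wt spleens, a difference of -0.17. The difference between the tissues was not tested, none of the 4 values was called, and the spleen side rests on 1 library.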

How the results depend on the processing

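Groups of 2 mice, and 1 Tg spleen, limit all comparisons. Values below are log2 differences or counts; where a cause is not evident from the setting, it was not tested. Pseudocounts of 0.1 and 5 left every count of members called as reported.

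With immunoglobulin and haemoglobin genes left out of the scaling, KI minus Wt in LN was 0.045 for H2-Aa, 0.063 for H2-Eb1 and 3.192e-05 for Cd74, and in spleen 0.0015 for H2-Aa, 0.034 for H2-Ab1 and 0.039 for H2-Eb1; 2 members were called higher in spleen and 2 in KI against Tg LN, H2-DMb1 there was 0.087, and the tissue difference of the KI effect on H2-Ob was 0.034. It moved the median of all genes by 0.134 in KI against Wt LN. Of all calls it made 70.2% higher in LN (53% as reported), 63.6% in spleen (45.3%) and 66.5% in KI against Tg LN (54.3%). After quantile normalisation, KI against Wt LN had 2 members called higher (H2-Ob at 0.65 and Ciita at 0.45) and 1 lower (Cd74 at -0.77), with H2-Aa at 0.26 and H2-Eb1 at 0.27 not called, KI against Wt spleen had 2 higher, and KI against Tg LN had 2 higher and 1 lower.

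Scaled to the pan B cell markers, a setting chosen after seeing the data, KI against Wt had 0 members higher and 1 lower in each tissue. In LN H2-Ab1 was -0.25, H2-DMb2 -0.26, Ciita -0.014, H2-Eb2 -0.22 and Tap1 -0.023, and in spleen H2-DMb1 was -0.21, H2-DMb2 -0.15 and H2-Eb2 -0.18. The medians of all genes moved by -0.283 and -0.213, and 22.7% and 15.7% of calls were higher; in KI against Tg LN the median moved by -0.23 and 26.9% were higher. LN against spleen then had 9355 genes called (96% higher, 40% as reported), 4 members higher and 0 lower, with H2-Aa at 0.14, H2-Ab1 0.23, H2-Eb1 0.19, H2-DMa 0.35, H2-DMb1 0.10, H2-DMb2 0.16, H2-Oa 0.35, H2-Ob 0.31, Cd74 0.18, Ciita 0.46, Pax5 0.12, Ctsz 0.16, Ctss 0.19, Cd40 0.049 and Icosl 0.24.

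DESeq2 called 28 genes in Tg against Wt LN. H2-DMb1 in KI against Tg LN was 0.0037 with DESeq2 and 0.0023 with edgeR. KI against Tg LN had 0 members higher with edgeR, in LN libraries alone, with a mean of at least 100, and with the mouse as a random block. Spleen libraries alone gave 2 members higher and 1 lower in KI. The replicate block with the mouse as a fixed term gave 596 genes for the tissue difference of the KI effect; the block changed no other count of members called beyond those given here and in the tissue comparison.

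Leaving out 1 library at a time gave these ranges. KI against Wt LN had 1465 to 1959 genes called and 0 to 1 members higher, with H2-Aa at -0.24 to 0.063, H2-Ab1 -0.16 to 0.23, H2-Eb1 -0.23 to 0.087, Cd74 -0.38 to 0.11, H2-DMb2 -0.16 to 0.21 and H2-Eb2 -0.11 to 0.25. KI against Wt spleen had 624 to 747 genes and 0 members higher, with H2-Ab1 at -0.13 to 0.018, H2-Eb1 -0.11 to 0.0001043, H2-DMb1 -0.15 to 0.16, H2-DMb2 -0.013 to 0.13 and H2-Eb2 -0.021 to 0.093. Tg against Wt LN had 0 to 13 genes (13 without Tg mouse 3), with H2-Oa at -0.23 to 0.35. KI against Tg LN had 1341 to 2527 genes, 0 to 1 members higher and 0 to 1 lower, with H2-DMb1 at -0.24 to 0.23. The tissue difference of the KI effect had 4 to 118 genes (4 without spleen KI mouse 6), with H2-Ob at -0.070 to 0.052 and Ciita at -0.38 to 0.011. LN against spleen had H2-Eb2 at -0.030 to 0.073. Tg against Wt spleen could not be fitted without its 1 Tg library.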
